A study of Mus musculus with 12 samples.

Results

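Immunophilins are the proteins that bind the immunosuppressants FK506, rapamycin and cyclosporin. The transcripts described here are those of 10 mouse immunophilin genes, Fkbp1a, Fkbp2, Fkbp3, Fkbp4, Fkbp5, Fkbp8, Ppia, Ppib, Ppid and Ppif, out of 15081 genes named on the arrays. Each had 1 spot whose only gene symbol was its own. The genes were chosen with earlier results on NLS minus WT in these samples in view, so their NLS minus WT values are given as a description and without a test. The comparison of the GH numbers averaged over both receptor forms was not part of that choice and is tested.

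Both immunophilin families, the FK506-binding proteins (FKBP) and the cyclophilins, are peptidyl-prolyl isomerases, which turn the bond before a proline in a folding or folded protein. Members differ in where they sit and what they bind. Some have only the isomerase domain, others carry tetratricopeptide repeats that dock on the chaperone Hsp90, and still others enter the endoplasmic reticulum, the mitochondrion or the nucleus. Bound to their drugs, FKBPs block the kinase mTOR or the phosphatase calcineurin, and cyclophilin A blocks calcineurin, which stops the activation of T lymphocytes.

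The series, titled for the nuclear growth hormone receptor, holds 12 mouse samples on spotted 2-colour arrays, 3 in each of the groups NLS 1GH, NLS 0GH, WT 1GH and WT 0GH, with replicate letters b, c and d. WT usually stands for wild type and NLS for a signal that sends a protein to the nucleus, while the 10 that follows these names in the titles is not explained. Every sample, at 0GH as at 1GH, carries the same treatment entry, human growth hormone (GH) at 100 ng/ml, the experiment is typed as a time course, and no unit is attached to the 0 or the 1. The labels give no age, strain, promoter or clone for the samples, name no cell type, and do not say whether the letters are separate cultures, so p-values measure the spread between these samples, which may be technical.

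Sample RNA was labelled with Cy3 and reference RNA from mouse embryos with Cy5 on every array, without a dye swap, so dye and sample cannot be told apart in a level. All values are log2 ratios of sample over reference, centred on the median of the 10762 features (8707 named genes and 2055 unnamed spots) that had a value on all 12 arrays. Between 15678 and 19376 spots had a value on an array. Which channel was divided by which is not stated. Of 43 measured genes of embryonic tissues, 39 lay above the median as deposited, and all signs were turned for that reason; the opposite reading would turn every sign below. These are bulk samples, in which fewer cells of a type and less RNA per cell cannot be told apart. With 3 arrays a group, the precision depends on that number and on the spread of each gene within groups.

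Of the 10 genes, 8 had a value on all arrays. Fkbp2 lacked one on WT 0GH c and Ppid on NLS 1GH b, so these genes were left out of counts over the arrays and of the main test.

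The 3 genes that set NLS apart from WT most evenly were Fkbp1a, Fkbp3 and Fkbp4, and their upstream sequences are shown to let the start regions be compared. The windows are the 250 bases before the annotated start in RefSeq, build GRCm38.p6, written in the direction of transcription, at chr2:151542233-151542482 (plus strand) for Fkbp1a, chr12:65073939-65074188 (minus strand) for Fkbp3 and chr6:128438657-128438906 (minus strand) for Fkbp4. Capitals mark matches on either strand to GGGCGG (the GC box), CCAAT (the CCAAT box), CACGTG (an E-box), TTCNNNGAA (the GAS form bound by STAT factors), GAANNTTC (a heat shock element core) or AGAACA (short glucocorticoid receptor site).
Fkbp1a: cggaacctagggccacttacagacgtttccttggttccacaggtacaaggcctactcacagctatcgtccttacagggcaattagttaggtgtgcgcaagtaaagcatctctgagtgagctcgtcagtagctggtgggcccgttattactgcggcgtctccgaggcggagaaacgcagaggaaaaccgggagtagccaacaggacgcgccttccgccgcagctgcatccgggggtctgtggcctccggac
Fkbp3: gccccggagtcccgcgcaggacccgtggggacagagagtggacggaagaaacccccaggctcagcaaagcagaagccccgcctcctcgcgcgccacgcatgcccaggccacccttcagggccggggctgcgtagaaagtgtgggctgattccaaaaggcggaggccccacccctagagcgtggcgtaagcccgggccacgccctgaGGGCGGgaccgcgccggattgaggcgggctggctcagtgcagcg
Fkbp4: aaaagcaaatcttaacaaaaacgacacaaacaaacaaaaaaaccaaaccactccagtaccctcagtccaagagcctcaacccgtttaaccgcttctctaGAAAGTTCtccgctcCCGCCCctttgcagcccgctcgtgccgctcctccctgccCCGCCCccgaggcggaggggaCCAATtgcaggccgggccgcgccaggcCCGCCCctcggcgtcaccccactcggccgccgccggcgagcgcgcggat
None of these 6 motifs lies in the Fkbp1a window. Fkbp3 has 1 GC box, 44 bases upstream of the start. Fkbp4 has 3 GC boxes, at 136, 97 and 49 bases upstream, a CCAAT box at 76 and a heat shock core at 151, and none of these matches overlap. Of the 10 genes, 9 were in the promoter table, all but Ppid, and Fkbp2 is entered with several starts. A gene was counted if any of its windows held the motif, while the shares are over single windows, so the units differ. No difference between them was tested. The GC box lay before 8 of the 9 (all but Fkbp1a), against 32.7% of 32851 windows of the same length. The CCAAT box lay before 6, against 33.8% of windows, the E-box before 1 (Fkbp5, 6.02% of windows) and the heat shock core before 1 (Fkbp4, 6.69%). The GAS form and the glucocorticoid receptor site lay before 0 of the 9, against 7.02% and 16.1% of windows.

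The comparison of NLS with WT asks how transcripts differ between the receptor forms. Fkbp1a, Fkbp3 and Fkbp4 were higher in NLS than in WT samples at both GH numbers, with average folds of 2.49, 2.26 and 2.05. After centring, the 6 NLS arrays lay above the 6 WT arrays for each of the 3, without overlap. Before centring, arrays of the forms overlapped for Fkbp1a and Fkbp4. The other FKBP genes and the cyclophilins showed no such separation after centring. Over both GH numbers their NLS and WT arrays overlapped, and some of them changed side between the GH numbers.

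Fkbp1a encodes FKBP12, the small cytosolic FKBP through which FK506 and rapamycin act, and a partner of the ryanodine receptor and of the type I receptors of the TGF-beta family. Its centred log2 ratio was -0.40, 0.41 and 0.04 in NLS 1GH b, c and d and -0.45, 0.59 and 0.28 in NLS 0GH, against -1.50, -1.36 and -0.94 in WT 1GH and -1.67, -1.01 and -0.93 in WT 0GH. The lowest NLS array, NLS 0GH b, was still above the highest WT array, WT 0GH d, and within each group the b array was lowest. NLS minus WT was 1.28 at 1GH and 1.34 at 0GH (SE 0.41 each, from the limma fit). Within letters the difference ran from 0.98 to 1.77 over the 6 pairs.

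Fkbp3 encodes FKBP25, a mostly nuclear FKBP that binds rapamycin and nucleic acids. Its ratio was 0.27, 0.62 and 0.25 in NLS 1GH b, c and d and -0.10, 0.73 and 0.60 in NLS 0GH, against -0.73, -0.16 and -1.17 in WT 1GH and -1.05, -0.39 and -1.18 in WT 0GH. The closest arrays of the forms were NLS 0GH b and WT 1GH c, at -0.10 and -0.16, so the gap was small, although within each letter NLS was higher by 0.78 or more. The difference, NLS minus WT, was 1.07 at 1GH and 1.28 at 0GH (SE 0.41 each).

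Fkbp4 encodes FKBP52, an Hsp90 partner with tetratricopeptide repeats that links steroid receptor complexes to dynein and favours receptor activity. Its ratio was 0.33, 1.02 and 0.27 in NLS 1GH b, c and d and 0.44, 1.08 and 0.62 in NLS 0GH, against -0.68, -0.30 and -0.15 in WT 1GH and -0.999, -0.08 and -0.25 in WT 0GH. Every NLS array lay above the median feature of its array and every WT array below it. NLS minus WT was 0.92 at 1GH and 1.16 at 0GH (SE 0.39 each), and it was positive in all 6 pairs, between 0.43 and 1.44.

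**Figure D1:**
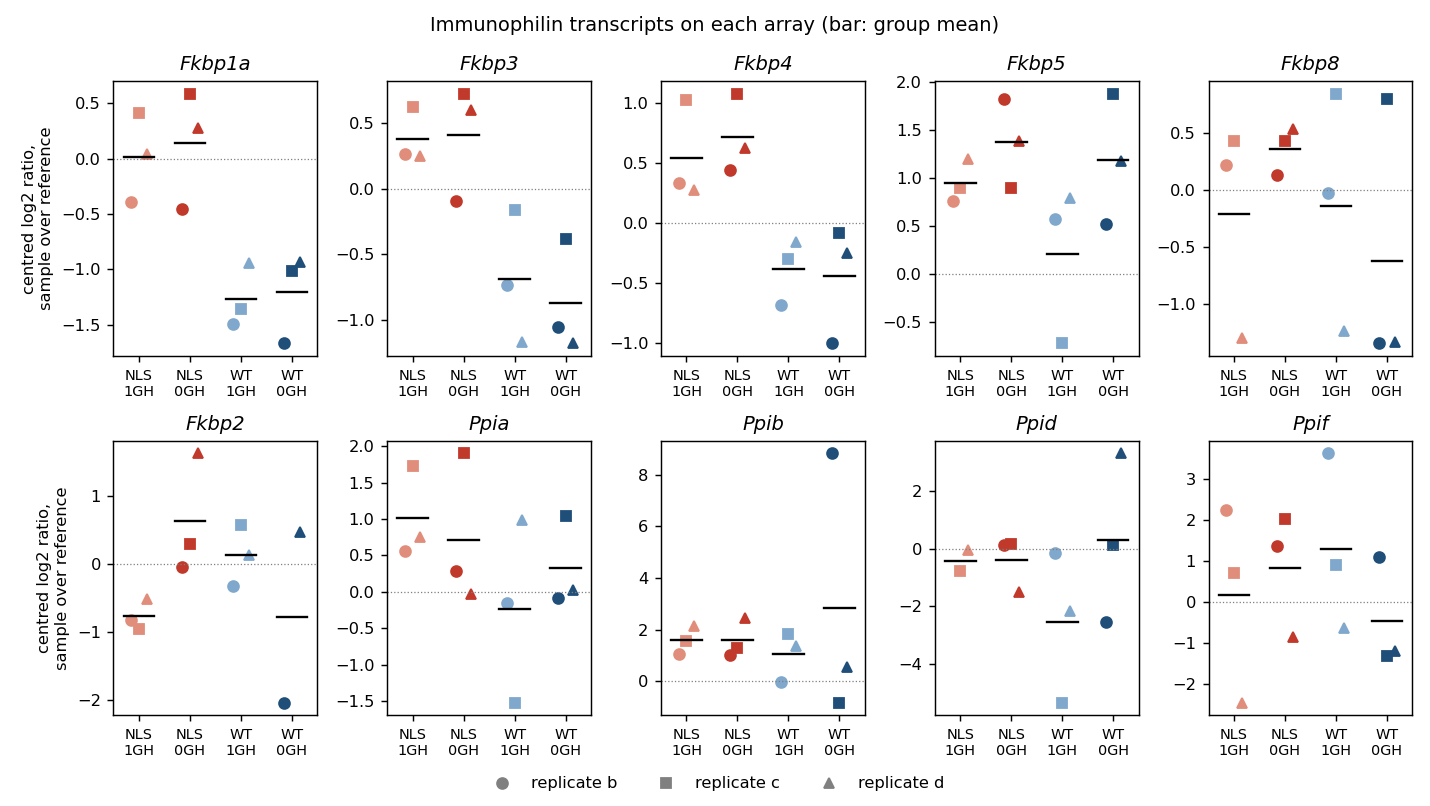
Centred log2 ratio of sample over reference (vertical axes, each gene on its own scale) for the 10 immunophilin genes in NLS 1GH, NLS 0GH, WT 1GH and WT 0GH, 1 symbol per array and replicate letter, with a bar at the group mean. The 6 NLS arrays lie above the 6 WT arrays for Fkbp1a, Fkbp3 and Fkbp4, and Ppib has 1 array, WT 0GH b, at 8.84.

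The count of 3 of 8 genes held at 1GH alone, where 4.48% of all features had 3 NLS arrays above 3 WT arrays, and at 0GH alone, where 4.66% did. Over both GH numbers, 0.567% of all features (61 of 10762) had all 6 NLS arrays above all 6 WT arrays, and 0.158% (17) had them all below. None of the 8 lay below in this way. Because the genes were chosen on this contrast, nothing is read from these shares. Averaged over both GH numbers, 7 of the 8 differences were above 0, with a median of 0.64, where 47.7% of all features were above 0 with a median of -0.03. No feature passed an adjusted p of 0.05 in limma with Benjamini-Hochberg adjustment in any of the NLS minus WT comparisons (0 of 10762). The share with an unadjusted p under 0.05 was 3.49% at 1GH, 4.61% at 0GH and 5.27% averaged, again with nothing read from it for the chosen genes.

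The spread of the 3 genes within groups is given as a description, since genes picked for arrays that do not overlap tend to have a small one. The residual SD within the 4 groups was 0.42 for Fkbp1a, 0.41 for Fkbp3 and 0.38 for Fkbp4, against a median of 1.0 over all features and quartiles of 0.56 and 1.61. Their averaged differences were 1.31, 1.17 and 1.04.

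**Figure D2:**
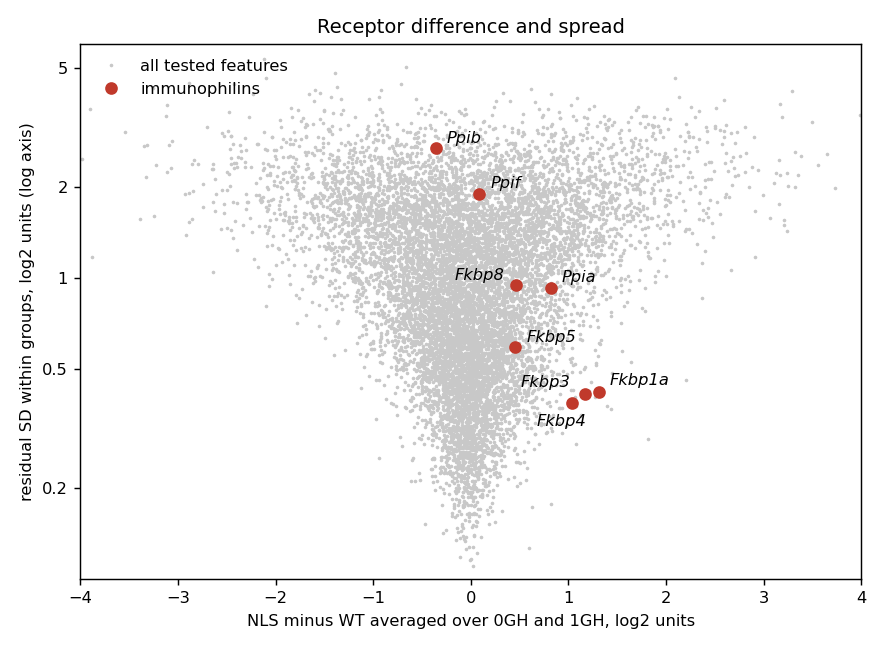
NLS minus WT averaged over 0GH and 1GH in log2 units (horizontal axis) against the residual SD within groups in log2 units (vertical log axis) for all tested features in grey, 11 of them outside the range drawn, and 8 immunophilins in red. Fkbp1a, Fkbp3 and Fkbp4 lie together at differences of 1.04 to 1.31 and SDs of 0.38 to 0.42, apart from Ppib and Ppif with SDs of 2.70 and 1.90.

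Fkbp1a and Fkbp4 followed each other from array to array. Over the 12 arrays Pearson's r was 0.96 between them, 0.85 between Fkbp1a and Fkbp3 and 0.85 between Fkbp3 and Fkbp4, values that contain the difference between the forms on which the genes were chosen. After the mean of each group was subtracted, r was 0.85 between Fkbp1a and Fkbp4, 0.45 between Fkbp3 and Fkbp4 and 0.37 between Fkbp1a and Fkbp3. Fkbp3 then went more with Fkbp8, at 0.80, and Fkbp1a and Fkbp4 with Ppia, at 0.61 and 0.60. Arrays of a letter carry the same dye incorporation value for the reference in the labels, 19.3 bp per dye molecule for b, 19.8 for c and 17.9 for d, and may not be independent, so the correlations are given as a description over 12 arrays.

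Technical measures that moved with the receptor form were looked at beside these genes. The sample dye was denser in NLS, with fewer bases per dye molecule than WT in 5 of 6 pairs and as many in the other. It was 15.5, 12.8 and 13.3 bases per dye molecule in NLS 1GH b, c and d and 16, 13.7 and 15.1 in NLS 0GH, against 15.6, 19.2 and 15.8 in WT 1GH and 16, 14.2 and 15.3 in WT 0GH. With this number as a covariate, an alternative chosen after seeing the data, the averaged NLS minus WT was 1.01 (SE 0.33) for Fkbp1a, 1.16 (SE 0.37) for Fkbp3 and 0.85 (SE 0.34) for Fkbp4. At 1GH alone it was lower than without the covariate, at 0.73 (SE 0.52) for Fkbp1a, 1.04 (SE 0.58) for Fkbp3 and 0.58 (SE 0.54) for Fkbp4, and at 0GH it was 1.299 (SE 0.39), 1.28 (SE 0.43) and 1.13 (SE 0.40) for the same genes. The spot identifiers end in numbers that appear to be print positions, distinct for all 22134 spots that carry them, and the spots of Fkbp1a, Fkbp3, Fkbp4 and Fkbp5 share the middle 2 of their 4 position numbers (4 and 19). The 220 other spots with these 2 numbers had a median averaged NLS minus WT of 0.06, with quartiles of -0.19 and 0.44, and after each array was centred within such sets of spots the differences were 1.22, 1.08 and 0.95 for Fkbp1a, Fkbp3 and Fkbp4.

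The other FKBPs gave no even difference. Fkbp5 encodes FKBP51, the Hsp90 partner that holds back the glucocorticoid receptor and is itself induced by glucocorticoids. It lay at 0.76, 0.90 and 1.19 in NLS 1GH b, c and d and 1.82, 0.90 and 1.39 in NLS 0GH, against 0.57, -0.72 and 0.79 in WT 1GH and 0.52, 1.88 and 1.18 in WT 0GH. The forms overlapped at both GH numbers, and WT 1GH c was the only array below the median feature. NLS minus WT was 0.74 at 1GH and 0.18 at 0GH (SE 0.51 each), and letter c had opposite signs at the GH numbers, with 1.62 at 1GH and -0.98 at 0GH. With the dye covariate the difference at 1GH was 0.054 (SE 0.65).

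Fkbp8 encodes FKBP38, an FKBP anchored in the outer mitochondrial membrane that binds BCL2. Its NLS arrays ran from -1.298 to 0.54 (median 0.33) and its WT arrays from -1.35 to 0.85 (median -0.63). For this gene NLS minus WT was -0.08 at 1GH and 0.99 at 0GH (SE 0.74 each), with NLS higher in 3 of 6 pairs. In letter c it was lower in NLS at both GH numbers.

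Fkbp2 encodes FKBP13, an FKBP of the endoplasmic reticulum. At 1GH the 3 NLS arrays, at -0.82, -0.94 and -0.51, lay below the 3 WT arrays, at -0.31, 0.58 and 0.14, where 4.24% of all features with 12 values did so. At 0GH it lay at -0.03, 0.31 and 1.64 in NLS b, c and d, against -2.04 and 0.48 in WT b and d. The difference was -0.89 at 1GH and 1.42 at 0GH, and the gene was not in the fit over all 12 arrays. The fit that admitted groups with at least 2 values gave -0.92 (SE 0.75) at 1GH and 1.51 (SE 0.84) at 0GH.

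Among the cyclophilins, Ppia encodes cyclophilin A, the abundant cytosolic target of cyclosporin, whose transcript shares near-identical sequence with many processed pseudogenes that a spotted probe may also bind. It lay at 0.56, 1.73 and 0.76 in NLS 1GH b, c and d and 0.28, 1.91 and -0.04 in NLS 0GH, against -0.15, -1.53 and 0.99 in WT 1GH and -0.09, 1.04 and 0.03 in WT 0GH. Letter c held both the highest NLS values and the lowest WT value. NLS minus WT was 1.25 at 1GH and 0.39 at 0GH (SE 0.73 each), and at 1GH it was 0.60 without the array WT 1GH c, which also had the sparsest sample dye, at 19.2 bases per dye molecule. With dye incorporation as a covariate the averaged difference was -0.05 (SE 0.43), against 0.82 (SE 0.52) without it, and at 1GH alone it was -0.36 (SE 0.67).

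Ppib encodes cyclophilin B, the cyclophilin of the endoplasmic reticulum, also known as a binding partner of prolactin, a hormone related to growth hormone. It lay above the median feature on all 6 NLS arrays, at 1.06, 1.57 and 2.13 in NLS 1GH b, c and d and 1.01, 1.298 and 2.46 in NLS 0GH, against -0.01, 1.83 and 1.36 in WT 1GH and 8.84, -0.85 and 0.53 in WT 0GH. The value of 8.84 on WT 0GH b decided the sign at 0GH. Before centring it was 9.50, above 8.36, the log2 of a full 16-bit signal over the authors' control channel floor of 200. That bound applies only if the reference was the floored channel. The value is not read as an exact level. NLS minus WT was 0.53 at 1GH and, at 0GH, -1.25 (SE 1.99) with this array and 1.75 without it.

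Ppif encodes cyclophilin D of the mitochondrial matrix, a regulator of the permeability transition pore. It lay at 2.25, 0.72 and -2.45 in NLS 1GH b, c and d, against 3.64, 0.92 and -0.62 in WT 1GH. In NLS 0GH it lay at 1.37, 2.02 and -0.85, against 1.09, -1.32 and -1.18 in WT 0GH. Every letter was lower in NLS at 1GH and higher at 0GH, with mean differences of -1.14 at 1GH and 1.31 at 0GH (SE 1.42 each), and the forms overlapped at both. The value at 1GH was 0.18 without NLS 1GH d and 0.025 without WT 1GH b. The share of all features with such a switch of sign was not counted.

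Ppid encodes the cyclophilin with tetratricopeptide repeats that joins Hsp90 and steroid receptors. Its 5 NLS values ran from -1.50 to 0.15 and its 6 WT values from -5.34 (WT 1GH c) to 3.30 (WT 0GH d). The difference was 2.13 at 1GH and -0.71 at 0GH, and in letter d it was 2.10 at 1GH and -4.80 at 0GH. The spread of the WT arrays thus exceeded either difference. With groups of at least 2 values admitted, the fit gave 2.12 (SE 1.75) at 1GH and -0.65 (SE 1.57) at 0GH.

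**Figure D3:**
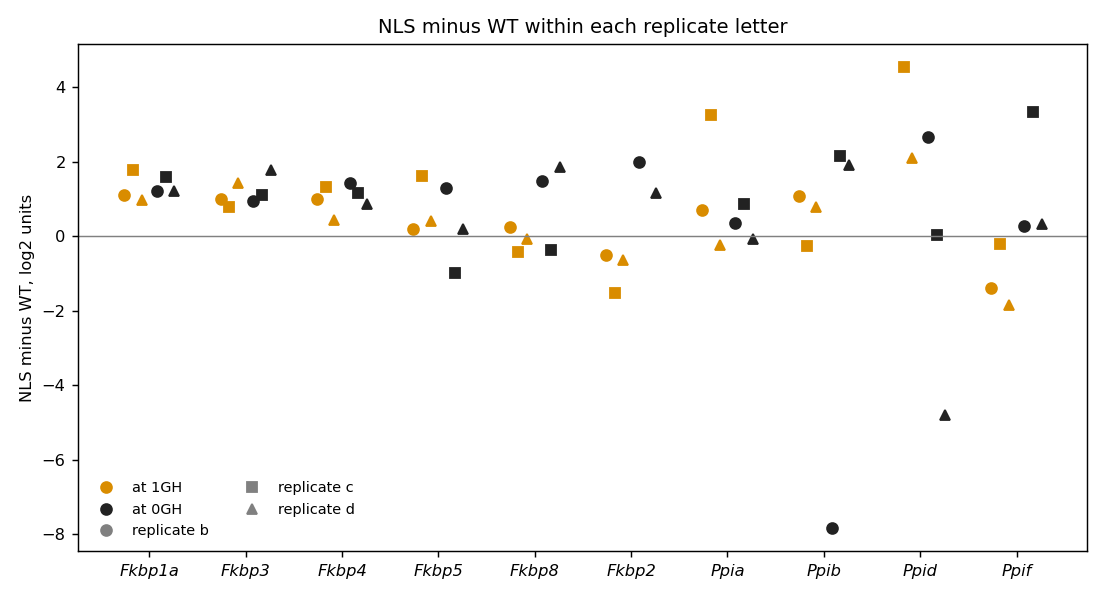
NLS minus WT in log2 units (vertical axis) for each immunophilin gene, within each replicate letter (symbol) at 1GH (orange) and 0GH (black). The 6 points of Fkbp1a, Fkbp3 and Fkbp4 all lie above 0, while those of Ppif lie below 0 at 1GH and above 0 at 0GH, and Ppib has a point at -7.83.

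The comparison of 1GH with 0GH, averaged over both receptor forms, was not the contrast on which the genes were chosen, and it was tested. Its SEs rest on the same spread within groups, which tends to be small in genes picked for arrays that do not overlap. No immunophilin passed the test. The difference was 0.08 (SE 0.29) for Fkbp3, -0.05 (SE 0.28) for Fkbp4 and -0.09 (SE 0.29) for Fkbp1a, each smaller than its SE. It was -0.04 (SE 0.53) for Fkbp8, -0.13 (SE 0.52) for Ppia, -0.89 (SE 1.41) for Ppib and 0.55 (SE 1.0) for Ppif, and the errors of Ppib and Ppif leave room for changes of more than 1 log2 unit. Fkbp5 had the difference that was largest for its SE, -0.70 (SE 0.36), and lay higher at 1GH in 2 of 6 pairs. The adjusted p in limma was 1.0 for each of the 8 genes.

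In limma 0 of 10762 features passed an adjusted p of 0.05 in this comparison (0.0%), and 307 (2.85%) had an unadjusted p under 0.05, none of them an immunophilin. In none of the 8 genes were the 6 arrays at 1GH all above or all below the 6 at 0GH, as was the case for 0.0558% of all features in each direction. Where every group with at least 2 values was admitted, Fkbp2 was at -0.24 (SE 0.57) and Ppid at -1.44 (SE 1.18), and neither passed in limma (adjusted p = 1.0 each).

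By receptor form the differences are given without a test of single genes, because they share arrays with NLS minus WT. No feature passed an adjusted p of 0.05 in limma in NLS, in WT or in the interaction (0 of 10762). Before adjustment, p was under 0.05 for 2.92% of features in NLS, 2.69% in WT and 2.42% in the interaction. In NLS samples, 1GH minus 0GH was -0.12 for Fkbp1a, -0.03 for Fkbp3, -0.17 for Fkbp4, -0.42 for Fkbp5 and 0.30 for Ppia. In WT samples it was -0.06, 0.19, 0.06, -0.98 and -0.56 for the same genes. Fkbp5 and Ppia in WT both carry the array WT 1GH c, where the letter c pair differed by -2.59 for Fkbp5 and -2.57 for Ppia.

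**Figure D4:**
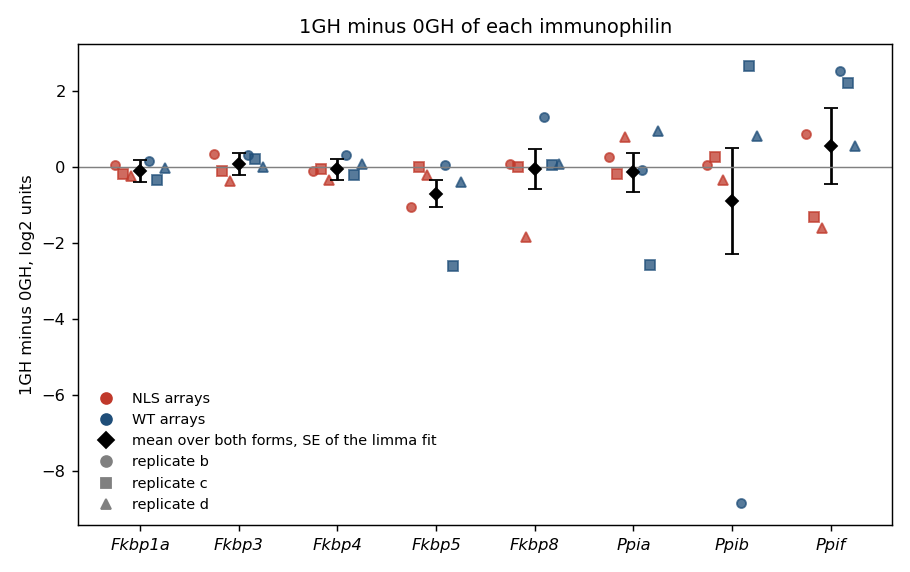
1GH minus 0GH in log2 units (vertical axis) for the 8 immunophilins with a value on all arrays, within each letter (symbol) in NLS (red) and WT (blue) samples, with a black diamond for the average over both forms and a bar of 1 SE from the limma fit. Fkbp1a, Fkbp3 and Fkbp4 average -0.09, 0.08 and -0.05, and the WT pair of letter b for Ppib lies at -8.85.

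Against the embryonic reference, Fkbp5 lay above the median feature on 11 of 12 arrays, with a mean of 0.93 (SD 0.68), and Ppib on 10 of 12, with a mean of 1.77 (SD 2.41). Fkbp1a lay below it on 8 of 12 arrays, with a mean of -0.58 (SD 0.77). The means were -0.19 (SD 0.71) for Fkbp3, 0.11 (SD 0.64) for Fkbp4, -0.15 (SD 0.89) for Fkbp8, 0.46 (SD 0.93) for Ppia and 0.47 (SD 1.77) for Ppif. These are ratios to the embryonic RNA for each probe and do not order the genes by abundance.

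The remaining isomerases of both families were listed for comparison. Of 11 other FKBP genes 6 had a spot and 2 a value on all arrays. Averaged NLS minus WT was 0.24 for Fkbp1b, the close relative of Fkbp1a in cardiac muscle, and -0.27 for Aipl1. Fkbp7, Fkbp9, Fkbp11 and Fkbpl lacked a value on some arrays. Of 13 other cyclophilin genes 11 were measured on all arrays, 5 above and 6 below 0, with a median of -0.11. They ran from 0.47 for Ppil3 to -0.76 for Ppil2, which has a U-box as well as an isomerase domain. In each of these 2 lists, none of the measured genes had its 6 NLS arrays all above or all below its 6 WT arrays.

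Of 2 parvulins, the remaining family of such isomerases, Pin4 was measured, at -0.21. Genes listed for a link to immunophilins by partner, pathway or compartment gave mixed values in NLS minus WT averaged over the GH numbers. No gene of these lists passed an adjusted p of 0.05 in limma in that comparison (0.0% of 10762 features did) or in 1GH minus 0GH. Of the Hsp90 machine and steroid receptors, 12 of 21 listed genes were measured on all arrays, 9 above and 3 below 0, with a median of 0.14. The highest was Cdc37, a kinase-specific Hsp90 partner, at 1.13 (SE 1.17). It was uneven, with 3.03 at 0GH and -0.76 at 1GH, and with NLS 0GH b at 6.02 and NLS 1GH b at -3.42. Next were Stub1, a ubiquitin ligase of Hsp70 and Hsp90 clients, at 0.88 (SE 0.35) and Stip1, which bridges Hsp70 and Hsp90, at 0.71 (SE 0.40).

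Of the genes induced by glucocorticoids, 6 of 12 were measured on all arrays, 3 above and 3 below 0. Sgk1, a kinase, was at 1.27 (SE 0.36), with 1.98 at 0GH and 0.56 at 1GH. Per1, a clock gene, was at -1.62 (SE 0.86) and changed side, with -3.50 at 0GH and 0.25 at 1GH. Calcineurin and NFAT genes measured on all arrays numbered 12 of 18, with 5 above and 7 below 0 and a median of -0.04. They ran from 0.54 (SE 0.56) for Calm3 to -0.84 (SE 0.54) for Ppp3ca, a catalytic subunit of calcineurin. Of the mTOR genes 10 of 14 were measured on all arrays, 3 above and 7 below 0, with a median of -0.14. Mtor itself was at -0.62 (SE 0.67). The ryanodine, inositol trisphosphate and TGF-beta receptors that FKBP12 can bind gave 3 above and 3 below 0, and the partners of FKBP8 gave 4 above and 3 below.

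Genes of endoplasmic reticulum folding, the compartment of Ppib and Fkbp2, had 10 of the 15 measured on all arrays above 0 and a median of 0.33. Pdia6, a disulfide isomerase, was at 2.17 (SE 1.24), with WT 1GH b at -7.71 and every other array between -2.08 and 1.15. Sdf2l1 was at 1.45 (SE 0.65). The lowest were P3h1 at -1.13 (SE 0.86) and Calr, the lectin chaperone calreticulin, at -0.62 (SE 0.41). Of the mitochondrial partners of cyclophilin D, 10 of the 11 measured on all arrays lay above 0, with a median of 0.14. Hspa9, the mitochondrial Hsp70, was the only gene of all these lists whose 6 NLS arrays (0.35 to 1.29) all lay above its 6 WT arrays (-0.50 to 0.30), at 0.82 (SE 0.26), a pattern seen in 0.567% of all features. Trap1, the mitochondrial Hsp90, was at 1.58 (SE 0.72).

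The named genes most like the mean of the 8 immunophilins over the 12 arrays were Tor1a (Pearson's r 0.89), Dctpp1 (0.86), 1700009N14Rik (0.84), 1500002C15Rik (0.83) and Rnf114 (0.83). The mean profile contains the NLS minus WT difference on which the immunophilins were chosen, so genes like it tend to differ between the forms too, and it includes Ppib with its value of 8.84 on WT 0GH b. Dctpp1, a nucleotide pyrophosphatase, ran from -0.37 to 0.83 in NLS and from -1.10 to -0.50 in WT arrays, and Tor1a, an ATPase of the endoplasmic reticulum, ran from 0.23 to 1.26 in NLS and from -0.76 to 1.07 in WT arrays.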

How the data were processed

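The authors deposited log ratios, read as log2 from their range (-14.6 to 18.2), after a Lowess fit of log ratio on log intensity using 50% of the data at each point, with the control channel floored at 200, per the series' design text. For scanner, background method and build the sources used here give nothing.

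From the 23040 spots, 902 controls were left out. Values were multiplied by -1 to read sample over reference, as a check of embryo-tissue genes led to, spots of a gene were averaged, and each array was centred on the median of the features with 12 values (array medians before centring ran from -0.515 to 1.46). Of the remaining 22138 spots, 16720 had 1 gene symbol, 142 had several and 5276 had none in the platform annotation, and 16014 of those with 1 symbol matched RefSeq by Entrez identifier. limma 3.58.1 (R 4.3.3) was fitted with lmFit and eBayes to the 12 arrays in 4 groups, with Benjamini-Hochberg adjustment over all 10762 features and a threshold of 0.05, after a test on simulated data. Promoter windows came from RefSeq, GRCm38.p6. Tables used pandas 2.3.3.

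The genes, partner lists and comparisons were chosen with earlier results of these data known. From each list at most the 3 highest and 3 lowest genes by averaged NLS minus WT are named, and the 5 named genes most correlated with the mean of the 8 complete immunophilins. Alternatives were no centring, quantile normalization, groups with at least 2 values, spots beyond the scanner bound left out, spots not averaged, the replicate letter as a block, and leaving out arrays and letters. Centring within print position and dye incorporation as a covariate were added after seeing the data.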

Additional observations from a re-analysis of the deposited data

Results flagged for a closer look

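Of 20 groups of 5 or 6 arrays (each immunophilin gene in NLS and in WT), 2 held an array far from the rest by Dixon's criterion, which chance meets in about 1 group in 20. Fkbp8 on NLS 1GH d was at -1.298, below the other 5 NLS arrays. Ppib on WT 0GH b was at 8.84, above the other 5 WT arrays.

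Ppif had opposite signs at the GH numbers. NLS was lower than WT in every letter at 1GH and higher in every letter at 0GH, and NLS minus WT at 1GH minus that at 0GH was -2.45 on the log2 scale. This difference was not tested.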

How the results depend on the processing

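All differences here are log2 values over the 8 immunophilins with 12 values, and medians are over these genes, with 1 exception. Leaving out spots beyond the scanner bound removes Ppib, at 9.50 before centring on WT 0GH b. The medians of that setting are therefore over the other genes and not over the same set. The median of NLS minus WT at 1GH was 0.83, against 1.23 without centring, 0.39 with the dye covariate and 0.51 to 0.94 on leaving out. At 0GH it was 1.08, against 0.89 without centring, 1.13 with groups of at least 2 values, 1.15 without spots beyond the scanner bound, 0.91 when centred within print position, and 0.80 to 1.21 when arrays or letters were left out. Averaged it was 0.64, against 0.82 without spots beyond the bound and 0.55 to 0.95 on leaving out. The median of 1GH minus 0GH averaged over both forms was -0.07, and -0.20 to 0.043 on leaving out. In NLS it was -0.14, against 0.17 without centring and -0.35 to -0.0052 on leaving out. In WT it was 0.0016, against -0.26 without centring, 0.26 with the dye covariate and -0.14 to 0.19 on leaving out. The interaction median was -0.14, against 0.44 without centring, 0.12 within print position, -0.56 with the dye covariate and -0.36 to 0.057 on leaving out.

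Signs of single genes turned as follows, and the cause was not tested. In NLS minus WT at 1GH, leaving out gave -2.18 to 0.18 for Ppif and -0.63 to 0.47 for Fkbp8, the dye covariate gave -0.36 for Ppia and 0.21 for Fkbp8, and no centring gave 0.32 for Fkbp8. At 0GH, leaving out gave -0.39 to 0.76 for Fkbp5 and -0.20 to 0.77 for Ppia, and Fkbp5 was at -0.17 with quantile normalization. Averaged, Ppif ran from -0.65 to 0.74 and Ppib from -1.28 to 1.15 on leaving out, and the dye covariate gave -0.048 for Ppia and 0.59 for Ppib. Near 0, signs of Fkbp5, Ppib and Ppif also turned under some other alternatives. In 1GH minus 0GH averaged over both forms, leaving out gave -0.24 to 0.023 for Fkbp1a, -0.054 to 0.20 for Fkbp3, -0.19 to 0.038 for Fkbp4, -0.42 to 0.37 for Fkbp8, -0.63 to 0.49 for Ppia, -2.07 to 0.86 for Ppib and -0.032 to 1.21 for Ppif. Fkbp4 was at 0.037 within print position and Ppia at 0.042 with the dye covariate. For Fkbp1a, Fkbp3 and Fkbp4, averaged NLS minus WT stayed within 1.13 to 1.46, 0.96 to 1.31 and 0.90 to 1.23 on leaving out. Without centring it was 1.42 (SE 0.48), 1.28 (SE 0.41) and 1.15 (SE 0.45), against SEs of 0.29, 0.29 and 0.28 with centring. Ppia was at 0.20 without letter c and Ppib at 1.14 without WT 0GH b.

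Deviations from group means correlated at 0.0433 to 0.263 between arrays of a letter and at -0.187 to 0.066 between letters. Of the 18 pairs of arrays of a letter, all had r above 0 and 15 had r above 0.1, a hint of pairing from the data. Arrays of a letter also share the dye incorporation value of the reference. No label states a pairing and not every r passed 0.1, so the letter was kept as an alternative. With the letter as a replicate block, 0 features passed in 1GH minus 0GH averaged over both forms, as without it, and 459 against 307 had an unadjusted p under 0.05 in limma. For Ppif the block gave the same NLS minus WT of -1.14 at 1GH and 1.31 at 0GH with an SE of 0.77, against 1.42 without it. The SE at 0GH with the block was 0.31 against 0.41 for Fkbp1a, but it rose for Ppib, to 2.12 against 1.99.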
